A study of Arabidopsis thaliana with 24 samples.

Results

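The genes described here lie on chromosome 4 of Arabidopsis thaliana around PRMT5, the gene that carries the prmt5-5 mutation. They are the 398 genes from AT4G30120 to AT4G33650 in the order of locus identifiers, of 33602 genes in the count tables. The interval holds 405 identifiers, and 7 of them, PRMT5 itself among them, are left out by the rule that defines the set. The interval was chosen by the Ler shares of the F1 hybrids, in which the Ler allele of these genes was nearly unread in prmt5-5 plants, so these shares are given as a description with no test. The parental libraries do not enter the rule, and they carry the tests. In the RefSeq annotation of TAIR10.1, 394 of the 398 genes were found, 374 of them protein coding, at chr4:14730215-16166994, a span of 1437 kb.

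Polyadenylated RNA from entire seedlings was sequenced in 24 libraries, and each of 8 groups had 3 of them. The parental groups were Ler prmt5-5, Col prmt5-5, Ler WT and Col WT, where Col is the accession Columbia (Col-0) and Ler the accession Landsberg erecta. The F1 groups were prmt5-5 and WT hybrids of both cross orders, written Col x Ler and Ler x Col as in the labels, and both parents of each prmt5-5 hybrid were mutants. All seedlings had grown for 9 days in continuous white light at 22 °C on agar medium after 4 days of cold stratification. Per the labels, the prmt5-5 allele was isolated in Col-0 and brought into Ler by 7 generations of backcrossing, with a check for the mutant allele after every cross. The Ler prmt5-5 line can therefore hold Col DNA around the allele, and the labels do not give its extent. The labels do not say whether the 3 libraries of a group were grown separately, so a p-value here reflects library-to-library spread that may be technical.

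PRMT5 is the main enzyme of plants that makes symmetric dimethylarginine. Its substrates include histone tails and the core proteins of small nuclear ribonucleoproteins, and Arabidopsis mutants are known for altered splicing, late flowering and a changed circadian period. When a mutation is moved into another accession by backcrossing, DNA of the donor that is closely linked to the selected allele tends to stay with it, while unlinked donor DNA is diluted at each cross. A gene in such a linked stretch has donor sequence in its promoter, its transcript and its neighbourhood.

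Sequencing depth was high in all libraries, with 36993754 to 72714639 gene counts per parental library and 6047694 to 29376408 allele counts per F1 library. The genes of the interval took 1.48% to 1.66% of the parental counts. Of the 398 genes, 336 had enough counts to be tested, 62 did not, and the highest group mean among those 62 was 0.186 CPM, the count scaled to the size of its library. Shoot markers (CAB1, CAB2, RBCS1A) summed to 26020 to 31870 CPM in Ler prmt5-5, 25080 to 27520 in Col prmt5-5, 32300 to 36740 in Ler WT and 29370 to 35860 in Col WT. The 3 root markers summed to 21.8 to 33.1 CPM in Ler prmt5-5, 37.6 to 45.8 in Col prmt5-5, 24.4 to 41.3 in Ler WT and 29.0 to 34.0 in Col WT, so the prmt5-5 accessions did not overlap. Of these 3, EXPA7, a root hair expansin, was lower in Ler in prmt5-5 (-1.57 ± 0.22, adjusted p = 0.000124) and passed the interaction (-1.22 ± 0.31, adjusted p = 0.0481). Seed storage markers summed to 0.0374 to 7.29 CPM in Ler prmt5-5 and 0.018 to 6.2 in Ler WT, a wide spread within each group. In Col they summed to 0.0 to 0.0302 CPM in prmt5-5 and 0.212 to 0.80 in WT. The floral markers AG and AP3 summed to 0.577 to 0.785 CPM in Ler prmt5-5, 0.15 to 0.31 in Col prmt5-5, 0.667 to 1.48 in Ler WT and 0.188 to 0.531 in Col WT, and AG was higher in Ler in both genotypes (1.5 ± 0.46 in prmt5-5 and 1.68 ± 0.46 in WT, adjusted p = 0.0257 and 0.0125). PRMT5 itself, listed as SKB1, had 29.7 to 37.2 CPM across all 12 parental libraries, so its level does not tell the genotypes apart. The part of the marker differences in the results below was not tested. In whole seedlings, fewer cells of a type and less RNA per cell cannot be told apart.

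Sequences upstream of 3 genes are shown because these genes carry the extremes of what follows. HMA3, a gene of the heavy metal P-type ATPase family, is the first gene at the low end of the interval. SDH3-2, a membrane anchor subunit of mitochondrial succinate dehydrogenase, was nearly unread in Ler WT alone of the parental groups. AT4G32230, an uncharacterised gene, was read in Ler WT alone of the parental groups. Each sequence is the 250 bases before the annotated gene start in TAIR10.1 (RefSeq), 5′ to 3′ on the minus strand, and thus the Col reference. No Ler sequence was used here.
HMA3, chr4:14733629-14733878, minus strand: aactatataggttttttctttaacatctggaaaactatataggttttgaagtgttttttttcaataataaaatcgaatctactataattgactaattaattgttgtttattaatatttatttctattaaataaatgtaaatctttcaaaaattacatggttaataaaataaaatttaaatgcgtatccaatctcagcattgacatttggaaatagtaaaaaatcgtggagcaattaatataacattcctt
SDH3-2, chr4:15558168-15558417, minus strand: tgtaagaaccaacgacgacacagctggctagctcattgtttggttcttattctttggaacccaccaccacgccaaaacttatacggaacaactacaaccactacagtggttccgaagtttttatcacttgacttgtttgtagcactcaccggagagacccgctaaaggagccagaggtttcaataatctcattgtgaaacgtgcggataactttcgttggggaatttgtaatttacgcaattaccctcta
AT4G32230, chr4:15566972-15567221, minus strand: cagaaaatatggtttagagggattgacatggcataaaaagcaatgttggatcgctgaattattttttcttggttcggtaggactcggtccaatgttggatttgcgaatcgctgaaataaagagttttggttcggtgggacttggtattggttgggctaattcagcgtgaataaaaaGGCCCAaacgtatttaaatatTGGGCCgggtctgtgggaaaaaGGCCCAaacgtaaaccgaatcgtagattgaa
Capitals mark TGGGCC, a core of the site II element, on either strand. It occurs in the AT4G32230 window and in neither of the others. It was found in 14.4% of the 389 windows of this length before genes of the interval and in 12.4% of the 33054 windows of all annotated genes. The HMA3 window had 21.2% G and C, the SDH3-2 window 43.6% and the AT4G32230 window 41.6%. A TATA box (TATAAA) or a G box (CACGTG), searched on both strands, was in none of these 3 windows, against 46.1% and 5.86% of the windows of all annotated genes, and 39.1% and 6.43% of those before genes of the interval.

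For each gene in the hybrids, the Ler share is the Ler allele count as a percent of the counts of both alleles. Of the 398 genes, 214 had at least 20 allele counts in each of the 4 F1 groups, and their shares are described. The other 184 fell short in some group, and 46 had no allele count in any F1 library. The median Ler share was 0.252% in prmt5-5 Col x Ler and 0.35% in prmt5-5 Ler x Col, against 50% in WT Col x Ler and 50.1% in WT Ler x Col. In both prmt5-5 crosses 210 of the 214 genes had a share under 10%, and 153 a share under 1%. No Ler count was seen in any of the 6 prmt5-5 libraries for 46 of the 214.

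Summed over all 398 genes, 3643 of 578451 allele counts were Ler in the prmt5-5 hybrids, or 0.63% (Wilson 95% interval 0.61% to 0.651%). In the WT hybrids 323274 of 642145 were Ler, or 50.3% (50.2% to 50.5%). The intervals cover counting error only, and 1439 of the 1877 allele counts from 1 to 10 (76.7%) were even, so they are too narrow if both ends of a fragment were counted. The upper limits given below for genes with 0 Ler counts would then be too low as well. By library, the summed share was 0.568%, 0.604% and 0.608% in prmt5-5 Col x Ler, and 0.564%, 0.587% and 1.1% in prmt5-5 Ler x Col. Replicate 3 of prmt5-5 Ler x Col stood above the other 5, and it also had the fewest allele counts of the prmt5-5 hybrids (6064866). In WT all 6 libraries lay between 50.1% and 50.5%. The gene with the most allele counts, GLDP1, the P protein of the photorespiratory glycine decarboxylase, had a share of 0.316% of 66103 counts in prmt5-5 hybrids and of 50.9% of 81023 counts in WT hybrids.

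**Figure D1:**
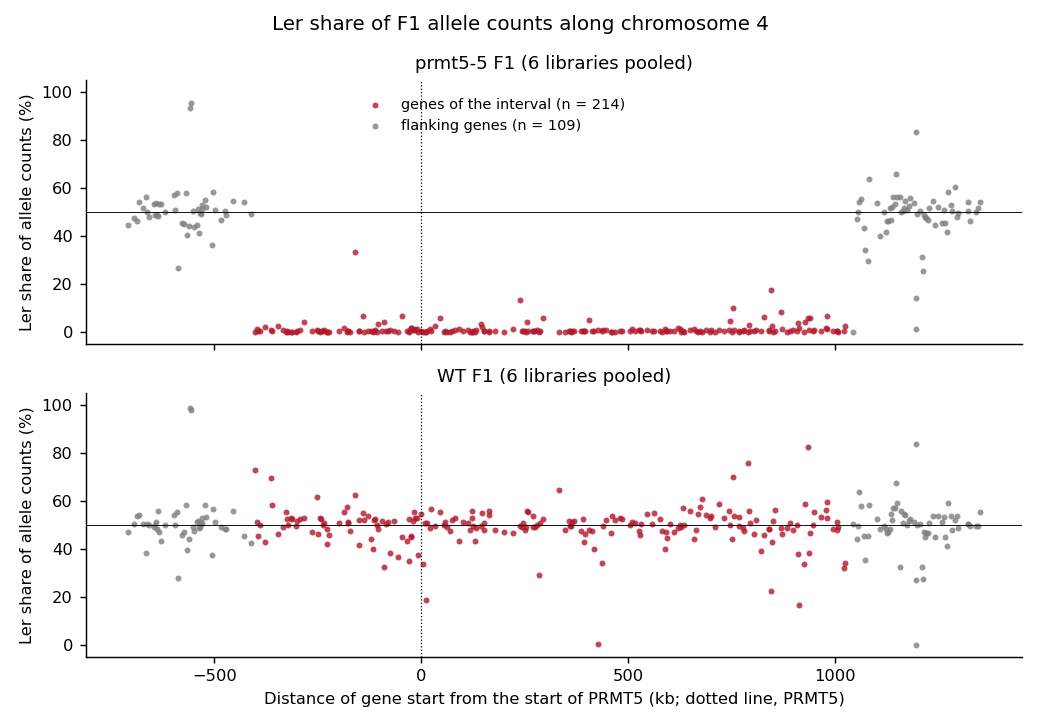
Ler share of the allele counts of each gene (y axis, percent) against the distance of its start from the start of PRMT5 (x axis, kb), for the pooled prmt5-5 hybrids (top) and the pooled WT hybrids (bottom). Red points are the 214 genes of the interval and grey points the 109 flanking genes with at least 20 allele counts in every F1 group. In prmt5-5 hybrids the red points lie near 0 with a median of 0.33% and the grey points around 50.1%, and in WT hybrids both lie around 50.1%.

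The edges of the stretch were sharp. At the low end, HMA3 had 0 Ler counts of 349 in prmt5-5 hybrids, which allows a share of up to 0.86%, and 72.8% of 712 counts in WT hybrids. Its neighbour outside, the heavy metal pump gene HMA2 (AT4G30110), had a share of 49.2% of 1046 counts in prmt5-5 hybrids and 42.3% of 1235 in WT hybrids. The annotated ends of these neighbours are 4903 bases apart. At the high end, the last measured genes inside were EX1, which mediates singlet oxygen signalling in plastids, AT4G33625 and BCA5, a carbonic anhydrase gene, with 2.51%, 0.255% and 0.0949% in prmt5-5 hybrids and 34.1%, 32.2% and 49.2% in WT hybrids. The low share went on past the last identifier of the set. AT4G33690 lies outside it and had 0 of 324 Ler counts in prmt5-5 hybrids, which allows up to 0.926%, against 50.4% of 361 counts in WT hybrids. The next gene with enough counts, AT4G33730, had 47.1% of 104 counts in prmt5-5 hybrids and 44.1% of 161 in WT hybrids, and 8715 bases separate it from AT4G33690. The interval runs 401.8 kb from its low end to the start of PRMT5 and 1030.0 kb from the end of PRMT5 to its high end.

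Between the edges the share was even. In bins of 200 kb that held at least 26 measured genes, the median Ler share ranged between 0.198% and 0.752% in prmt5-5 hybrids and between 48.5% and 52.8% in WT hybrids. The flanks, which are the 100 identifiers on either side of the interval, had 109 measured genes with a median of 50.1% in both prmt5-5 and WT hybrids. Of the 16229 measured genes outside the interval, the medians were 49.8% in prmt5-5 and 49.9% in WT hybrids.

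Few of the 214 measured genes departed from this picture. The 184 genes with fewer than 20 allele counts in some F1 group are not covered by this. Their pooled shares in prmt5-5 hybrids varied widely, with 0.0% for AT4G30170, 75.7% for AT4G30900 and 94.1% for AT4G32320 as examples. In the pooled WT hybrids these examples had only 15, 26 and 30 allele counts. PDE327 (AT4G30720), annotated as an FAD/NAD(P)-binding oxidoreductase, kept 90 Ler counts of 271 in prmt5-5 Col x Ler and 88 of 264 in prmt5-5 Ler x Col, or 33.2% and 33.3%. Its share in WT was 65.7% in Col x Ler and 60.8% in Ler x Col. DBR1, the lariat debranching enzyme of intron turnover, had 13.1% of 153 and 13.4% of 179 counts in the prmt5-5 crosses, against 50% of 84 and 49.1% of 163 in the WT crosses. AT4G32915 (12.2% and 7.77%) and AT4G33120 (28.1% and 4.0%) reached 10% in prmt5-5 Col x Ler and not in prmt5-5 Ler x Col, on at most 103 counts per prmt5-5 cross. In the WT hybrids, 4 genes had a share under 20% in some cross. The lowest was AT4G32208, annotated as a member of the heat shock protein 70 family, with 0.508% of 1182 counts in WT hybrids, beside 0.901% of 1221 in prmt5-5 hybrids. CDC20.1, an activator of the anaphase-promoting complex, had 1.43% of 2173 counts in prmt5-5 and 16.6% of 2341 in WT hybrids. AT4G31150, annotated as endonuclease V family, had 0 of 424 in prmt5-5, which allows up to 0.708%, and 18.5% of 108 in WT hybrids. AT4G30830 had 0.0% of 70 counts in prmt5-5 hybrids, and 6.67% of 30 and 62.2% of 45 counts in the WT crosses Col x Ler and Ler x Col.

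The level of each allele in the hybrids was set against WT. Scaled to each library's total of allele counts and averaged over the 3 libraries of a group, the Col allele of the 214 genes had a median ratio of prmt5-5 over WT of 2.13 in Col x Ler and 2.12 in Ler x Col. The sum of both alleles had median ratios of 1.05 and 1.07. In the flanks the Col allele ratio was 1.06 and 1.17, and over the genes outside the interval 1.06 and 1.11. These ratios share their libraries with the values that chose the interval, so nothing is read from them.

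The parents gave a separate view of these genes. In prmt5-5, 42 of the 336 tested genes differed between Ler and Col, or 12.5%, against 28.1% of all 22924 genes tested (edgeR's quasi-likelihood test, Benjamini-Hochberg adjusted p under 0.05). Of these, 17 were higher in Ler (14% of all genes tested) and 25 lower (14.1%), and 8 differed at least 2-fold (9.34%). In WT, 86 of the 336 differed between Ler and Col, or 25.6%, against 29.8% of all genes tested. Of these, 44 were higher in Ler (14.5%) and 42 lower (15.2%), and 26 differed at least 2-fold (9.83%). The flanks had 41 of 151 tested genes past the threshold in prmt5-5 and 40 in WT. The median absolute log2 difference in the interval was 0.13 in prmt5-5 and 0.17 in WT, and over the genes outside it 0.20 in prmt5-5 and 0.21 in WT.

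**Figure D2:**
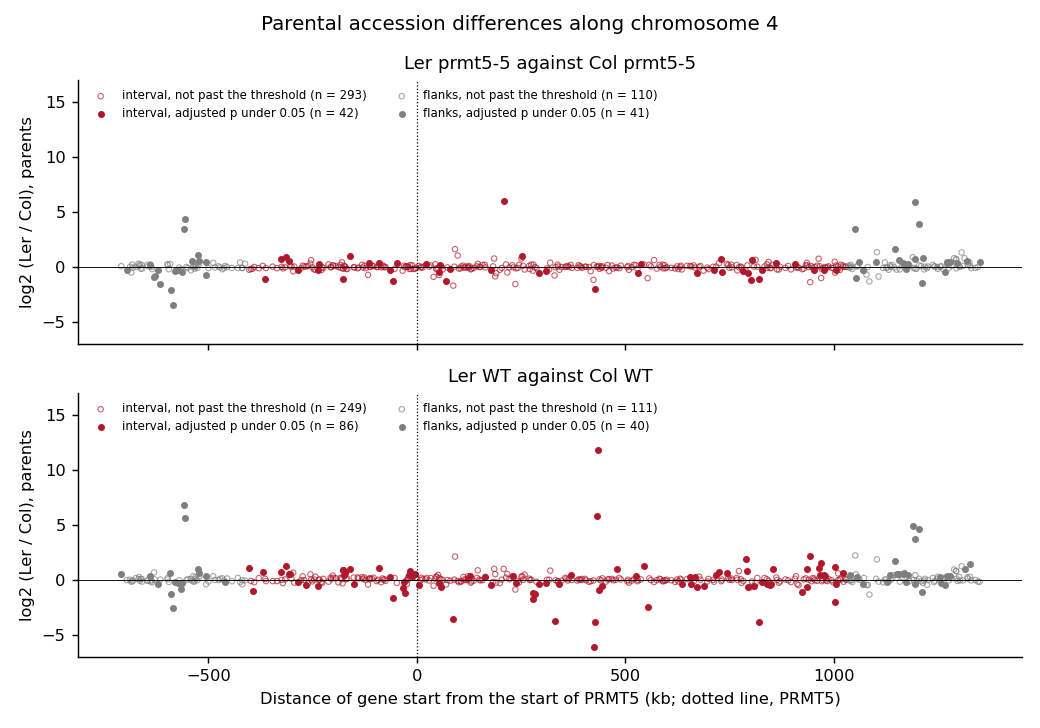
Log2 ratio of Ler over Col in the parents (y axis) against the distance of the gene start from the start of PRMT5 (x axis, kb), in prmt5-5 (top) and WT (bottom). Filled points passed an adjusted p of 0.05, red points are genes of the interval with a position and grey points flanking genes, and 42 red points are filled in prmt5-5 and 86 in WT. The highest red point in WT (AT4G32230) and in prmt5-5 (AT4G31680) are fitted values against a group with no counts and are not fold sizes.

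The genes that differed in WT were mostly not the genes that differed in prmt5-5. Of the 86 interval genes called between Ler and Col in WT, 20 were also called in prmt5-5, which is 23.3% of the WT calls and 47.6% of the prmt5-5 calls, and 18 of these 20 had the same sign. In the flanks 24 genes were called in both, or 60% of the WT calls and 58.5% of the prmt5-5 calls. Outside the interval 3877 were called in both, or 57.6% of the 6736 WT calls and 60.7% of the 6392 prmt5-5 calls. Of the WT calls of at least 2-fold, 5 of 26 were called in prmt5-5 within the interval, 9 of 11 in the flanks and 1742 of 2227 outside the interval. The Ler against Col comparisons in prmt5-5 and in WT share no library.

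Over the 86 genes called in WT, each prmt5-5 library was placed by whether its level on the log2(CPM + 0.5) scale was nearer to the mean of Col WT or of Ler WT. In the 3 Ler prmt5-5 libraries 55.8%, 65.1% and 65.1% of the 86 genes were nearer to Col WT. In the flanks this was so for 30.0%, 37.5% and 35.0% of 40 genes, and outside the interval for 29.8%, 32.3% and 33.3% of 6736. In the 3 Col prmt5-5 libraries the shares for the interval were 77.9%, 81.4% and 74.4%. Outside the interval they were 75.8%, 77.7% and 74.4% in the same libraries, so for Col prmt5-5 the interval was near the other genes.

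**Figure D3:**
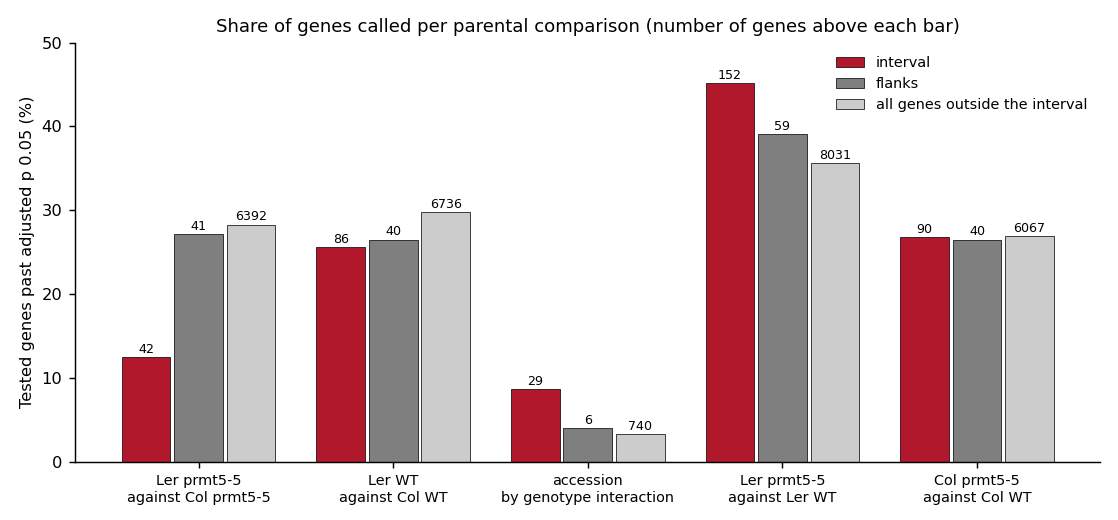
Percent of tested genes past an adjusted p of 0.05 in edgeR's quasi-likelihood test (y axis) for the 5 parental comparisons (x axis), in the interval (red, 336 genes), the flanks (dark grey, 151) and all genes outside the interval (light grey, 22581), with the number of genes above each bar. The interval has the lowest bar of the 3 for Ler against Col in prmt5-5 (12.5%) and the highest for the interaction (8.63%).

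The change itself was tested as an interaction, the log2 difference of Ler minus Col in prmt5-5 less that in WT. It passed in 29 of the 336 genes, or 8.63%, against 3.35% of all genes tested, with 13 positive (1.59%) and 16 negative (1.76%), and in 12 it was at least 2-fold (1.25%). The flanks had 6 of 151. Outside the interval 3.28% passed. The count was 19 without Col WT replicate 3, or 5.62% against 1.58% outside the interval. It was 45 without Ler prmt5-5 replicate 1, or 13.3% against 7.44%. The count was 17 of 229 genes without those whose span overlaps another gene, with no share outside the interval taken for it. Of the 29 genes, 25 were called between Ler and Col in WT and 8 in prmt5-5, and in 24 the difference was smaller in prmt5-5. Within Ler, 27 of the 29 also passed for prmt5-5 against WT, and within Col 12 did. The interaction is built from the same libraries as these comparisons, so its calls tend to go with theirs. These splits were not set against those of calls outside the interval, and nothing is read from them.

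SDH3-2 had the highest interaction of the genes named here. Its level was 9.35, 15.3 and 14.1 CPM in Ler prmt5-5 and 10, 11.4 and 13.3 CPM in Col prmt5-5. It was 0.198, 0.187 and 0.106 CPM in Ler WT and 13.4, 9.93 and 12 CPM in Col WT. The 3 Ler WT libraries were far below the other 9, whose ranges overlapped. Ler minus Col was 0.16 ± 0.17 on the log2 scale in prmt5-5 (SE, adjusted p = 0.552) and -6.10 ± 0.28 in WT (adjusted p = 8.47e-10), and the interaction was 6.26 ± 0.34 (adjusted p = 1.83e-07).

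SDH3-2 has a near-identical copy on chromosome 5, SDH3-1 (AT5G09600), and the coding sequences share 641 of 642 bases in TAIR10.1, so the split of reads between them is uncertain. SDH3-1 had 7.72, 13.7 and 13 CPM in Ler prmt5-5, 10.3, 11.2 and 9.91 in Col prmt5-5, 17.3, 23.3 and 21.7 in Ler WT and 11.9, 10.3 and 11.4 in Col WT. It was thus higher in Ler WT, where SDH3-2 was low (Ler minus Col in WT 0.89 ± 0.18, adjusted p = 0.0019). The sum of both copies was 17.1, 29.0 and 27.1 CPM in Ler prmt5-5, 20.4, 22.6 and 23.2 in Col prmt5-5, 17.5, 23.4 and 21.8 in Ler WT and 25.3, 20.3 and 23.4 in Col WT, with overlap among all 4 groups. In the hybrids SDH3-2 had 0 Ler and 4 Col counts over all 12 libraries, so no share is given.

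Close to SDH3-2 lies AT4G32230, the reverse case by its level in Ler WT. It had 0 counts in all 3 libraries of Ler prmt5-5, of Col prmt5-5 and of Col WT, and 9.77, 6.77 and 7.09 CPM in Ler WT. With a floor of 3 counts per group, it was at least 480-fold lower in Ler prmt5-5 than in Ler WT, and at least 463-fold higher in Ler WT than in Col WT. In the hybrids, WT libraries held 72, 90, 121, 62, 368 and 210 Ler counts and 0, 2, 0, 0, 0 and 0 Col counts, while the 6 prmt5-5 libraries held 2 Ler counts and 1 Col count in all. Its neighbour AT4G32220, also uncharacterised, had 0 counts in Ler prmt5-5 and in Col prmt5-5, 211 in Ler WT and 4 in Col WT, so it was at least 86.4-fold lower in Ler prmt5-5 than in Ler WT. With 0 counts in both prmt5-5 groups, neither AT4G32230 nor AT4G32220 passed the interaction (adjusted p = 0.9998 for each in edgeR's test). Neither is thus among the 29 interaction calls. SDH3-2, AT4G32208, AT4G32212, AT4G32220 and AT4G32230 lie at chr4:15556397-15566971, all on the minus strand.

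**Figure D4:**
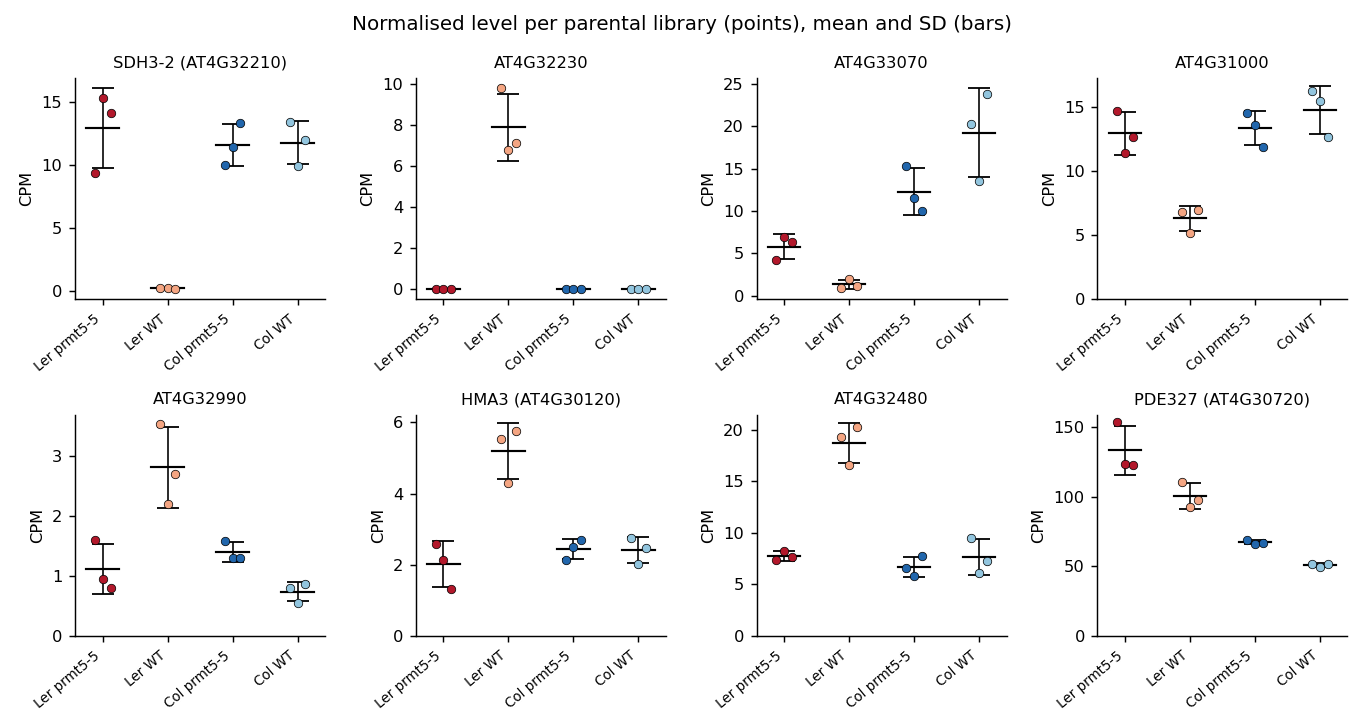
Normalised level (CPM, y axis) of 8 genes of the interval in each parental library (points, 3 per group) with the mean and SD (bars), with prmt5-5 left of WT within Ler and within Col (x axis). For SDH3-2, AT4G32230, AT4G31000, HMA3 and AT4G32480 the 3 Ler WT points stand apart from those of the other 3 groups, while for PDE327 both Ler groups lie above both Col groups.

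Of the 13 genes with a positive interaction, 12 were lower in Ler than in Col in WT, and AT4G30990 did not pass there (-0.29, adjusted p = 0.0551). The WT difference is subtracted in the interaction, so a positive value tends to go with a lower Ler level in WT. AT4G33070, a pyruvate decarboxylase gene of ethanol fermentation, had 4.18, 6.89 and 6.33 CPM in Ler prmt5-5, 15.3, 11.6 and 9.95 in Col prmt5-5, 0.901, 1.96 and 1.11 in Ler WT and 20.3, 13.5 and 23.8 in Col WT. Both Ler groups stayed below both Col groups, and the gap was narrower in prmt5-5. Ler minus Col was -1.09 ± 0.28 in prmt5-5 (adjusted p = 0.0145, and 0.0577 without Ler prmt5-5 replicate 1), -3.85 ± 0.33 in WT (adjusted p = 5.22e-06) and the interaction 2.77 ± 0.43 (adjusted p = 0.00776). AT4G31000, annotated as calmodulin binding, had 14.7, 11.4 and 12.7 CPM in Ler prmt5-5, 14.5, 13.6 and 11.9 in Col prmt5-5, 6.78, 5.17 and 6.99 in Ler WT and 16.2, 15.4 and 12.7 in Col WT. All 3 Ler WT libraries were below the other 9, and the interaction was 1.19 ± 0.19 (adjusted p = 0.0053). AT4G32240, an uncharacterised gene next to AT4G32230, had 48.4, 36.1 and 37.2 CPM in Ler prmt5-5, 42.0, 37.1 and 36.1 in Col prmt5-5, 18.1, 15.4 and 17 in Ler WT and 28.4, 34.5 and 31.6 in Col WT. Its interaction was 0.98 ± 0.16 (adjusted p = 0.00552). GPX7, a plastid glutathione peroxidase, and AT4G31875 on the other strand overlap in position, and each had an interaction of 1.35 (adjusted p = 0.0216 and 0.00646), so they are not told apart. The GPX7 call was lost without Col WT replicate 3, Ler WT replicate 2 or Ler prmt5-5 replicate 2 (adjusted p up to 0.0576).

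Of the 16 genes with a negative interaction, 13 were higher in Ler than in Col in WT, and AT4G30180, AT4G32460 and HB-8 did not pass there. The subtraction likewise favours this direction. AT4G32990, a WD40 repeat gene, had 1.59, 0.951 and 0.803 CPM in Ler prmt5-5, 1.59, 1.30 and 1.30 in Col prmt5-5, 3.53, 2.20 and 2.7 in Ler WT and 0.80, 0.557 and 0.861 in Col WT. The Ler WT libraries were above the other 9, and the interaction was -2.21 ± 0.39 (adjusted p = 0.00861). AT4G32480, of the DUF506 family, had 7.32, 8.26 and 7.64 CPM in Ler prmt5-5, 6.55, 5.84 and 7.72 in Col prmt5-5, 19.3, 16.5 and 20.3 in Ler WT and 9.54, 6.11 and 7.22 in Col WT. Again Ler WT stood above, and the interaction was -1.09 ± 0.21 (adjusted p = 0.0132). HMA3 had 2.58, 2.14 and 1.31 CPM in Ler prmt5-5, 2.13, 2.49 and 2.68 in Col prmt5-5, 5.53, 4.31 and 5.75 in Ler WT and 2.75, 2.02 and 2.48 in Col WT. Its interaction was -1.36 ± 0.31 (adjusted p = 0.0281). That call was lost without Col WT replicate 2 or 3, Ler WT replicate 1 or 3, Col prmt5-5 replicate 2 or 3, or Ler prmt5-5 replicate 2, with adjusted p up to 0.0881.

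More abundant transcripts were among the calls. The spans of AT4G32340, AT4G30910, AT4G33490, AT4G30975, GLDP1, CDEF1, AME3 and CNGC9 overlap another annotated gene, so some of their counts may belong to it. AT4G32340, a tetratricopeptide repeat gene, had 66.1, 56.1 and 53.3 CPM in Ler prmt5-5, 62.8, 54.1 and 66.6 in Col prmt5-5, 77.1, 89.8 and 91.8 in Ler WT and 47.6, 38.8 and 46.1 in Col WT, with an interaction of -1.03 ± 0.15 (adjusted p = 0.0033). AT4G30910, a cytosol aminopeptidase gene, averaged 22.4 ± 2.2 CPM in Ler prmt5-5, 17.9 ± 1.3 in Col prmt5-5, 46.7 ± 1.7 in Ler WT and 21.8 ± 1.0 in Col WT (SD, n = 3 each). Its interaction was -0.78 ± 0.11 with an adjusted p of 0.00299 in edgeR's test. AT4G30660, of a family responsive to low temperature and salt, and AT4G30662 on the other strand overlap and had interactions of -0.98 and -1.07 (adjusted p = 0.00724 and 0.0146), so they too are not told apart. The calcium-signalling kinase gene SIP3 and the aspartyl protease gene AT4G33490 were called in both genotypes with opposite signs. For SIP3, Ler minus Col was -0.30 ± 0.08 in prmt5-5 (adjusted p = 0.00976) and 0.26 ± 0.08 in WT (adjusted p = 0.0178). The WT value of SIP3 passed neither without Col WT replicate 2 nor without Ler WT replicate 1 (adjusted p up to 0.0731), and the prmt5-5 value did not without Col prmt5-5 replicate 2 (0.0511). For AT4G33490 the differences were -0.33 ± 0.10 in prmt5-5 and 0.39 ± 0.10 in WT (adjusted p = 0.0208 and 0.00675), and the prmt5-5 value was lost without Col prmt5-5 replicate 3 or Ler prmt5-5 replicate 2 or 3 (adjusted p up to 0.0832).

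Some genes kept their accession difference in prmt5-5. PDE327, which also kept Ler counts in the prmt5-5 hybrids, had 153, 124 and 123 CPM in Ler prmt5-5, 68.7, 66.3 and 67.0 in Col prmt5-5, 111, 92.8 and 97.6 in Ler WT and 51.4, 49.2 and 51.6 in Col WT. All Ler libraries were above all Col libraries. Ler minus Col was 0.98 ± 0.09 in prmt5-5 (adjusted p = 1.55e-06) and 0.98 ± 0.09 in WT (adjusted p = 1.58e-06). XTH24, which remodels xyloglucan of the cell wall, had 40.8, 63.5 and 49.0 CPM in Ler prmt5-5, 30.7, 23.9 and 29.6 in Col prmt5-5, 81.5, 117 and 116 in Ler WT and 50.7, 40.7 and 44.1 in Col WT. Ler was again above Col in both genotypes, by 0.86 ± 0.18 in prmt5-5 (adjusted p = 0.0034) and 1.22 ± 0.18 in WT (adjusted p = 0.000254). Unlike PDE327, XTH24 had a Ler share of 0.0947% in prmt5-5 hybrids and 52.5% in WT hybrids. AT4G30975, a non-coding RNA, was lower in Ler in both, by -1.27 ± 0.29 in prmt5-5 and -1.61 ± 0.28 in WT (adjusted p = 0.00455 and 0.000598). GLDP1 was lower in Ler too, at -0.53 ± 0.16 in prmt5-5 and -0.62 ± 0.16 in WT (adjusted p = 0.0205 and 0.00827). Its prmt5-5 value did not pass without Col prmt5-5 replicate 2 or Ler prmt5-5 replicate 1 (adjusted p up to 0.093).

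Other genes, 22 of the 336 or 6.55%, differed between the accessions in prmt5-5 and did not pass in WT, against 11.1% of all genes tested. Some of them were higher in Ler, such as AT4G31805 (0.94 ± 0.14 in prmt5-5, adjusted p = 0.000166 in edgeR's test). AT4G31805 did not pass in WT (0.31, adjusted p = 0.12) or by the interaction (0.63, adjusted p = 0.104). The genes that follow were lower in Ler in prmt5-5. AT4G31330, of unknown function, had 1.02, 1.03 and 1.16 CPM in Ler prmt5-5, 2.44, 2.94 and 2.47 in Col prmt5-5, 1.80, 2.95 and 1.80 in Ler WT and 2.76, 3.03 and 3.10 in Col WT. Ler minus Col was -1.29 ± 0.21 in prmt5-5 (adjusted p = 0.000278) and -0.43 ± 0.20 in WT (adjusted p = 0.116), and the interaction did not pass (adjusted p = 0.121). AT4G30650, a neighbour and relative of AT4G30660, had 34.1, 22.2 and 23.0 CPM in Ler prmt5-5, 67.7, 48.0 and 60.5 in Col prmt5-5, 35.5, 38.4 and 40.3 in Ler WT and 45.9, 46.0 and 51.0 in Col WT, with -1.15 ± 0.16 in prmt5-5 (adjusted p = 0.000138) and an interaction that did not pass (-0.82 ± 0.22, adjusted p = 0.0647). AT4G30180, uncharacterised, was at 1.47 ± 0.16 CPM in Ler prmt5-5, 3.23 ± 0.23 in Col prmt5-5, 2.09 ± 0.20 in Ler WT and 1.99 ± 0.34 in Col WT (SD, n = 3 each). Its interaction of -1.21 ± 0.25 passed (adjusted p = 0.0166 in edgeR's test). HB-8, a class III homeodomain gene of vascular development, had 52.6, 50.9 and 50.3 CPM in Ler prmt5-5, 71.9, 67.9 and 70.5 in Col prmt5-5, 44.4, 42.2 and 42.6 in Ler WT and 45.2, 39.9 and 42.3 in Col WT, and its interaction was -0.47 ± 0.09 (adjusted p = 0.0124).

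The allelic differences of the WT hybrids were set beside the parental differences as a description. The F1 shares are among the values that chose the interval, so no support is drawn from them. Across the 213 tested genes of the interval with a measured share, the log2 ratio of Ler over Col counts in WT hybrids had a Pearson correlation of 0.04 with Ler minus Col of the prmt5-5 parents and of 0.40 with that of the WT parents. Across the 47 genes of the lower flank these were 0.93 and 0.98, across the 62 of the upper flank 0.28 and 0.31, and across both 0.59 and 0.73. Across 16221 genes outside the interval they were 0.75 and 0.75. Rank (Spearman) correlations with the prmt5-5 and the WT parents were 0.05 and 0.46 in the interval. By rank they were 0.52 and 0.49 in the lower flank, 0.34 and 0.39 in the upper flank and 0.42 and 0.44 across both. Outside the interval they were 0.52 and 0.53. By rank, the interval was thus near the flanks for the WT parents. Genes are not independent replicates, and no p is given. Of the 31 interval genes with an allelic difference of at least 0.5 on the log2 scale in WT hybrids, the parental difference had the same sign in 18 in prmt5-5 and in 24 in WT. In the flanks it had the same sign in 12 of 18 such genes in prmt5-5 and in 13 in WT. Outside the interval it had the same sign in 2791 of 3350 such genes in prmt5-5 and in 2784 in WT.

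**Figure D5:**
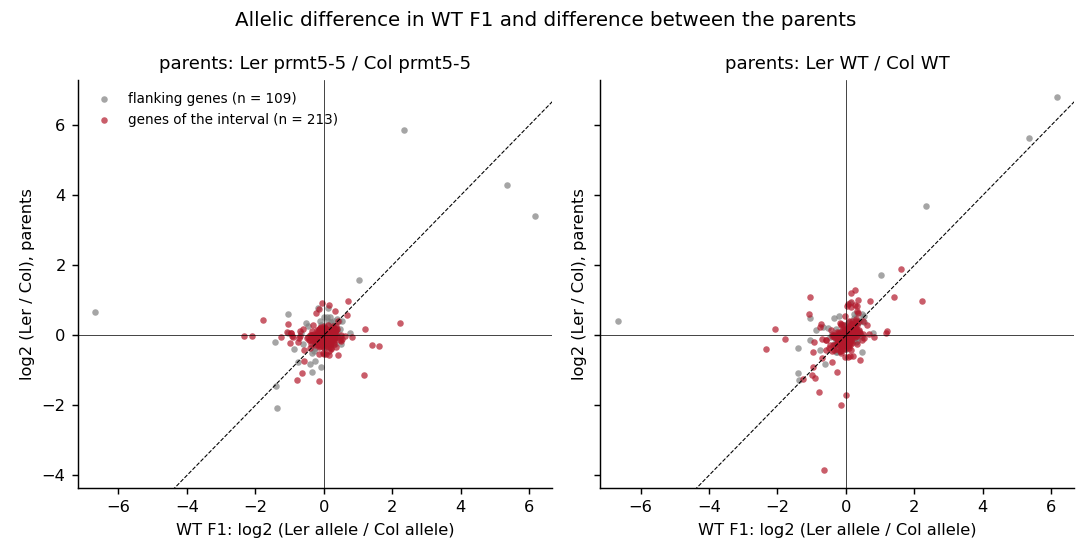
Log2 ratio of Ler over Col allele counts in WT hybrids (x axis) against the log2 ratio of Ler over Col between the parents (y axis), in prmt5-5 (left) and in WT (right), with the line of equality dashed. Red points are the 213 tested genes of the interval and grey points the 109 flanking genes, and the red points have a Pearson correlation of 0.04 on the left and 0.40 on the right.

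Within Ler, prmt5-5 differed from WT in 152 of the 336 genes, or 45.2%, against 35.7% of all genes tested. Of these, 72 were higher in prmt5-5 (18.9% of all genes) and 80 lower (16.9%), and 27 changed at least 2-fold (5.96%). Within Col, 90 of the 336 differed, or 26.8%, against 26.9% of all genes tested, with 55 higher (14.6%) and 35 lower (12.3%), and 10 at least 2-fold (3.78%). In the flanks 59 of 151 genes passed in Ler and 40 in Col. In Col the share called was near that of all genes tested, and in Ler it was above it, a gap that was not tested.

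Several genes changed in the same direction in both accessions. AT4G31150, which overlaps another gene, had 35.5, 23.3 and 24.4 CPM in Ler prmt5-5 and 9.23, 9.72 and 11.2 in Ler WT. In Col it had 29.4, 25.6 and 29.2 CPM in prmt5-5 and 8.96, 8.84 and 8.79 in WT. It rose by 1.47 ± 0.14 in Ler (adjusted p = 5.85e-06) and by 1.66 ± 0.14 in Col (adjusted p = 2.49e-06), with no overlap between genotypes. MUS81, an endonuclease of recombination and repair, rose by 0.99 ± 0.11 in Ler and 1.12 ± 0.11 in Col (adjusted p = 1.44e-05 and 6.03e-06). AT4G32700, a DNA polymerase of the MUS308 type, rose by 0.87 ± 0.09 and 0.72 ± 0.09 (adjusted p = 1.03e-05 and 5.74e-05). AT4G32590, a ferredoxin-like gene, fell by 0.72 in Ler and by 1.03 in Col (adjusted p = 3.65e-05 and 2.52e-06). CDEF1, a cutin-degrading esterase, had 81.2, 97.7 and 110 CPM in Ler prmt5-5 and 22.1, 36.3 and 40.3 in Ler WT, beside 108, 100 and 120 in Col prmt5-5 and 65.3, 79.1 and 59.6 in Col WT. It rose by 1.55 ± 0.20 in Ler (adjusted p = 0.000144) and by 0.68 ± 0.19 in Col (adjusted p = 0.022), and the interaction did not pass (0.87 ± 0.27, adjusted p = 0.116). The Col call was lost without Col WT replicate 1 or 3 or Col prmt5-5 replicate 1 or 3 (adjusted p up to 0.0831). Ler WT held the lowest libraries of the 4 groups.

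Gene groups within the interval were described by counts. The groups are chosen lists and need not hold every interval gene of their kind. Of 6 genes of RNA processing, 5 rose (18.9% of all genes tested) and 1 fell (16.9%) in Ler prmt5-5, and 5 rose in Col prmt5-5 (14.6%), with medians of 0.40 in Ler and 0.37 in Col against 0.01 in each over all genes tested. DBR1 rose by 0.49 ± 0.09 in Ler and 0.36 ± 0.08 in Col (adjusted p = 0.000654 and 0.00657). The cyclophilin gene AT4G33060 rose by 0.48 ± 0.07 and 0.63 ± 0.07 (adjusted p = 0.00013 and 1.87e-05), and AME3, a LAMMER-type kinase, by 0.51 ± 0.12 and 0.50 ± 0.12 (adjusted p = 0.00362 and 0.00575). The call of La1, an RNA-binding protein, in Ler was lost without Ler WT replicate 2 or 3 or Ler prmt5-5 replicate 2 or 3 (adjusted p up to 0.0816). The call of AT4G31200 in Col was lost in 11 alternative fits (adjusted p up to 0.247). The member that fell in Ler was nPAP, a nuclear poly(A) polymerase, at 88.2, 84.3 and 84.5 CPM in Ler prmt5-5 and 101, 101 and 104 in Ler WT (-0.26 ± 0.06, adjusted p = 0.00485), with 83.3, 85.4 and 86.0 in Col prmt5-5 and 80.2, 75.3 and 75.9 in Col WT. Ler WT was above the other groups for nPAP.

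Of 9 cell cycle and DNA maintenance genes, 4 rose (18.9% of all genes tested) and 2 fell (16.9%) in Ler prmt5-5, and 2 rose in Col prmt5-5 (14.6%). Between the accessions none of the 9 was called in prmt5-5 (28.1% of all genes tested), and 2 were lower in Ler in WT (15.2%). Of 8 tested ion transport genes, 4 fell in Ler prmt5-5 (16.9% of all genes tested) and none passed in Col (26.9%), with medians of -0.23 in Ler and -0.13 in Col. They include HMA3, the cyclic nucleotide-gated channel genes CNGC17 (-0.28 ± 0.08, adjusted p = 0.0161, and 0.0513 without Ler prmt5-5 replicate 1) and CNGC9 (-0.34 ± 0.11, adjusted p = 0.0333) and the ZIP family metal transporter gene ZIP9 (-1.01 ± 0.32, adjusted p = 0.0239). The CNGC9 call was lost without Ler WT replicate 2 or 3 or Ler prmt5-5 replicate 1 or 2 (adjusted p up to 0.12). The 3 XTH genes of the interval were all higher in Ler in WT (median 0.55, 14.5% of all genes tested). In prmt5-5, 2 of them were (median 0.52, 14%). XTH24 and XTH18 fell in prmt5-5 in both accessions (16.9% of all genes tested in Ler and 12.3% in Col). The WT difference of XTH19 was lost without Col WT replicate 1 or 3 or Ler WT replicate 2 (adjusted p up to 0.0694). The prmt5-5 difference of XTH18 was lost without Col prmt5-5 replicate 1 (0.0525), and the fall of XTH24 in Col without Col WT replicate 1 or Col prmt5-5 replicate 2 (up to 0.0592).

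Of 12 chloroplast and photosynthesis genes, 3 differed between Ler and Col in prmt5-5 (28.1% of all genes tested) and 3 in WT (29.8%), and none passed the interaction (3.35%). The prmt5-5 calls were those of GLDP1, of VTE1, the tocopherol cyclase, and of SQD1, which acts in sulfolipid synthesis. VTE1 was lost without Col prmt5-5 replicate 2 or Ler prmt5-5 replicate 1 or 2 (adjusted p up to 0.0682), and SQD1 without Col prmt5-5 replicate 1 or 3 or Ler prmt5-5 replicate 2 or 3 (up to 0.075). Of 8 hormone genes, 2 were lower in Ler in prmt5-5 (14.1% of all genes tested) and 1 in WT (15.2%), with HB-8 the 1 that passed the interaction (3.35%). Of 6 tested B3 domain genes of the REM family, none was called between Ler and Col in WT (29.8% of all genes tested) and 1 in prmt5-5 (28.1%). This was AT4G31680, with 27 counts in Ler prmt5-5 and 0 in Col prmt5-5, at least 7.59-fold higher. None of the 5 listed receptor kinase genes and none of the 3 listed WRKY genes was called between Ler and Col in either genotype or by the interaction. Receptor kinase genes of the interval outside this list are not covered. Over all genes tested the shares called were 28.1% in prmt5-5, 29.8% in WT and 3.35% for the interaction. Of 6 tested flowering and chromatin genes, 1 was lower in Ler in prmt5-5 (14.1% of all genes tested) and none was called in WT (29.8%). Of 2 tested CYP82C genes, 1 (CYP82C2) was lower in Ler in WT (15.2% of all genes tested) and none was called in prmt5-5 (28.1%). Groups this small do not allow a count to be told apart from these shares.

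Outside the high edge, AT4G33730, a gene whose Ler share in prmt5-5 hybrids was like that in WT hybrids, had Ler minus Col of -1.05 in prmt5-5 and 0.49 in WT (adjusted p = 0.00124 and 0.0665) and an interaction of -1.54 (adjusted p = 0.00881). HMA2, outside the low edge, did not pass in prmt5-5 (0.28, adjusted p = 0.115), in WT (-0.06, adjusted p = 0.774) or by the interaction (0.33, adjusted p = 0.343).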

How the data were processed

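The submitters' processing notes name Trim Galore, FastQC, STAR 2.7.9a and TAIR10. The values the authors deposited are whole-number counts, with 1 value per gene in a parental library and a Col and a Ler value in an F1 library. The alignment and counting of Ler reads, the rule that gave a read to an allele and the use of strand were not given in the sources used here. Of 33602 genes, 3 had no value in the Ler columns and were left out, none in the interval.

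The 12 parental libraries were fitted together in edgeR 4.0.16 (R 4.3.3; TMM, filterByExpr, robust quasi-likelihood) with 1 mean per group, and p-values were adjusted (Benjamini-Hochberg) over 22924 genes. All tests were two-sided. CPM are TMM-normalised. On simulated data of 22924 genes, the fit recovered 77% of interactions of log2 size 1 and 16% of size 0.5, with 1 false call. Ler shares used counts pooled over the 3 libraries of a group and a minimum of 20 allele counts in each of the 4 F1 groups. Sequences and positions are RefSeq TAIR10.1.

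The members and lists were chosen with earlier results of these data known. Genes named are those with the largest differences per comparison among calls with a mean count of at least 10 and no overlap of libraries, list members, genes at the edges, and genes with a Ler share of 10% or more in prmt5-5 hybrids. For the interaction, no overlap was asked of Ler and Col in WT, which favours genes that differ there. AT4G30830, AT4G32208, AT4G32212, AT4G32220, AT4G32230, AT4G32915, AT4G33120, SIP3 and AT4G33490 were chosen after their values were seen. Alternatives were other size factors, no filter on low counts, DESeq2 1.42.0, a replicate block, leaving out each library and, added after the data were seen, leaving out overlapping genes or genes with a mean count under 10 in some group. Parental depth was 36993754 to 72714639 counts, and a count of 0 allows 3 counts.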

Additional observations from a re-analysis of the deposited data

Results flagged for a closer look

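In the genes below, the difference between Ler and Col was itself different in prmt5-5 and in WT, by the test of the interaction in edgeR's fit. Values are Ler minus Col in prmt5-5 less Ler minus Col in WT on the log2 scale, with 3 libraries in each of the 4 parental groups. Positive values were 6.26 for SDH3-2, 2.77 for AT4G33070, 1.46 for AT4G33560, 1.35 for AT4G31875, 1.35 for GPX7, 1.19 for AT4G31000, 0.98 for AT4G32240, 0.59 for AT4G30990 and 0.45 for PC-MYB1. Negative values were -2.21 for AT4G32990, -1.36 for HMA3, -1.21 for AT4G30180, -1.09 for AT4G32480, -1.07 for AT4G30662, -1.03 for AT4G32340, -0.98 for AT4G30660, -0.78 for AT4G30910, -0.72 for AT4G33490, -0.56 for SIP3, -0.53 for AT4G32460, -0.47 for HB-8 and -0.39 for nPAP.

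Some of these calls did not pass in every fit that left out 1 library. AT4G30990 (adjusted p up to 0.108) passed only without Col WT replicate 2 or Ler prmt5-5 replicate 1, PC-MYB1 (up to 0.11) only without Ler WT replicate 2 or Ler prmt5-5 replicate 1, and AT4G33560 (up to 0.092) only without Col prmt5-5 replicate 1 or 3 or Ler prmt5-5 replicate 1. The nPAP call was lost without Col WT replicate 2 or 3, Ler WT replicate 3, Col prmt5-5 replicate 2 or 3, or Ler prmt5-5 replicate 2 or 3 (adjusted p up to 0.0704). The AT4G32460 call was lost without Col WT replicate 1 or 3, Ler WT replicate 2, Col prmt5-5 replicate 1 or 3, or Ler prmt5-5 replicate 3 (up to 0.0727). The calls of HMA3 and GPX7 were lost in the fits named above (up to 0.0881 and 0.0576). None of these 7 values changed sign.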

How the results depend on the processing

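Counts of called interval genes stayed within 1.5 times the reported ones under other size factors, no filter on low counts, DESeq2, the replicate block and a mean count of at least 10 in every parental group. The exceptions concern the interaction (29), which gave 19 without Col WT replicate 3, 45 without Ler prmt5-5 replicate 1 and 17 without overlapping genes. Leaving out 1 library gave 31 to 53 calls for Ler against Col in prmt5-5, 70 to 106 in WT, 19 to 45 for the interaction, 124 to 157 for prmt5-5 against WT in Ler and 61 to 106 in Col. The median Ler share ranged between 0.289% and 0.352% in prmt5-5 hybrids, the 0.289% without Ler x Col prmt5-5 replicate 3, and between 50.1% and 50.3% in WT hybrids. DESeq2 called 43 genes for the interaction, or 12.5% of those with a p-value, against 6.67% outside the interval. The share called outside the interval thus moved with the fit too. When 1 library was left out, it lay between 21.2% and 29.6% for Ler against Col in prmt5-5 and between 23.2% and 34.0% in WT. For the interaction it lay between 1.58% and 7.44%. For prmt5-5 against WT it lay between 27.7% and 38.2% in Ler and between 18.7% and 32.0% in Col. With the replicate number as a block the counts were 43, 88, 31, 152 and 86 in the same order, and 39, 83, 28, 148 and 83 genes were called with and without the block. The block counts were 12.8%, 26.2%, 9.23%, 45.2% and 25.6% of the tested interval genes. Outside the interval the shares with the block were 27.4%, 29.4%, 3.34%, 34.6% and 25.8%. No pairing by number was seen over all groups. Of 18 same-numbered pairs of parental libraries, 6 had a correlation over 0.1, and 3 of 12 libraries correlated best with their own number. Ler WT with Ler prmt5-5 gave 0.55 for replicate 1, 0.59 for replicate 2 and -0.12 for replicate 3. Such counts cannot show that pairing was absent. Of 117 values of named genes, 86 passed under every setting and none changed sign. AT4G31200, an RNA-binding gene counted among the RNA processing genes that rose in Col, lost its call (adjusted p = 0.0461) under other size factors, no filter, the block and DESeq2 (adjusted p up to 0.247 over all fits). Depth limits genes under 20 allele counts in some F1 group, whose shares are not described beyond the examples given above.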

Other observations

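AT4G32208 and SDH3-2 were counted very differently in the parental and the F1 tables. AT4G32208, which lies between SDH3-2 and AT4G32212 and overlaps the AT4G32212 span, averaged 0.0909 CPM in Ler prmt5-5, 0.119 in Col prmt5-5, 0.0597 in Ler WT and 0.0605 in Col WT, too few to be tested. It nevertheless had 1221 allele counts over the 6 prmt5-5 hybrid libraries and 1182 over the 6 WT hybrid libraries, nearly all of them Col. SDH3-2 had 457 to 917 counts in each prmt5-5 parental library and 374 to 853 in each Col WT library, and 4 allele counts over all 12 hybrid libraries. Levels of such genes are therefore not set against each other between the parental and the F1 tables.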
